A study of Homo sapiens with 24 samples.

Results

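Chromatin binding of S100A9-Flag was compared between nontransformed and transformed MCF-10A–ER-Src cells, from 6 of the 11 peak lists of Flag ChIP-seq in the series of 24 samples. MCF-10A is an immortalized, nontransformed line of basal mammary epithelium, and its ER-Src derivative carries v-Src fused to the ligand-binding domain of the estrogen receptor, so that tamoxifen switches the oncoprotein on. All cells of the comparison stably expressed S100A9 with a C-terminal Flag tag from a retroviral vector in addition to their own S100A9, and both groups therefore carry ER-Src and the tagged protein. They received 1 μM 4-hydroxytamoxifen (TAM, 3 libraries) or its vehicle ethanol (EtOH, 3 libraries) for 24 hours. The chromatin was cross-linked between proteins and then to DNA, immunoprecipitated with anti-Flag, and each library was scored against its own input. ChIP of untagged cells and read depths were not analyzed here, so a peak is called over input only.

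S100A8 and S100A9 are small calcium-binding proteins of the S100 family that form a heterodimer, calprotectin, known mostly as a secreted inflammatory signal of neutrophils, monocytes, and stressed epithelium. Neither protein has a classical DNA-binding domain, so their ChIP signal need not mean direct contact with DNA. AP-1 (FOS and JUN dimers), C/EBP proteins, and STAT3 bind mostly to enhancers, ETS and KLF/SP1 factors bind mostly to GC-rich promoters, and CTCF binds to insulators and loop anchors. Src signaling through ERK is known to raise AP-1 activity, and the v-Src model also engages NF-κB, IL6, and STAT3.

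A site of a condition was a stretch with overlapping peaks of q ≤ 1e-07 (the false discovery rate that MACS2 gives a peak) in at least 2 of its 3 libraries, on chromosomes 1 to 22 and X. Sites of both conditions merged into 25219 S100A9 regions, out of 30322 regions found when the S100A8-Flag lists were added. A region was called kept when it held a site of both conditions, gained when it held a TAM site only, and lost when it held an EtOH site only. These names describe calls against a threshold, and no test was attached to a single region. Of the 25219 regions, 23835 were gained (94.5%), 1274 were kept (5.05%), and 110 were lost (0.436%).

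To show what these regions look like, 101 bases around the summits of some of the strongest ones are given below from GRCh37 (hg19), plus strand, 5′ to 3′. Capitals mark exact matches, on either strand, to the letters searched for AP-1 (TGACTCA), ETS (CGGAAG), KLF/SP1 (CCCCGCCC), CREB (TGACGTCA), and C/EBP (TTGCNNAA). CTCF was searched with a 12-letter pattern. No string of letters searched contains another. The promoters of MRPL55 (chr1:228297002-228297102) and MTERF4 (chr2:242041731-242041831), a subunit of the mitochondrial ribosome and a factor for its assembly, stand for regions called in all 6 libraries.
MRPL55: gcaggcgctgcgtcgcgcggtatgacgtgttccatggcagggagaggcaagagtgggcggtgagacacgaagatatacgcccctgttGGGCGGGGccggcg
MTERF4: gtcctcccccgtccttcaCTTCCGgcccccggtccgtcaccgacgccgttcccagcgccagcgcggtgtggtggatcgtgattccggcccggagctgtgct
The promoters of SLC37A4 (chr11:118901600-118901700), EED (chr11:85956181-85956281), and ERCC1 (chr19:45927651-45927751) were called in all 3 TAM libraries and had no peak of any strength in EtOH.
SLC37A4: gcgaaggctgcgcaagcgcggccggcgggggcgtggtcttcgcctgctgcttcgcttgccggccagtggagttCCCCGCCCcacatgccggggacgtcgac
EED: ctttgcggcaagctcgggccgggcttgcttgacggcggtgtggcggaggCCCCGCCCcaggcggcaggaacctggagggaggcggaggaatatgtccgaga
ERCC1: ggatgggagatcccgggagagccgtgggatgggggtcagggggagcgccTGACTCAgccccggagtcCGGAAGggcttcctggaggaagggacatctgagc
An intron of PI4KB (chr1:151284170-151284270) holds a distal region that was likewise called in all 3 TAM libraries with no EtOH peak, with AP-1 letters beside the summit.
PI4KB: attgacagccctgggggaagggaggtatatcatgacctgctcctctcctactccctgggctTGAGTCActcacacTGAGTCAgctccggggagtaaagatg
The promoter of PACS2 (chr14:105766702-105766802) stands for the few lost regions with no TAM peak of any strength, and the promoter of IL1RAP (chr3:190231398-190231498) is the lost promoter with the highest rank over the EtOH libraries that called it, which were 2 of 3.
PACS2: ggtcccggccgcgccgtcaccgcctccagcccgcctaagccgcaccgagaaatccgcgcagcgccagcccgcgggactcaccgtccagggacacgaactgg
IL1RAP: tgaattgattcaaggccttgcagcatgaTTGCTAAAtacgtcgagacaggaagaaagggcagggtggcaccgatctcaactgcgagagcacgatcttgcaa

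The number of peaks did not overlap between the conditions. The EtOH libraries held 3595, 1853, and 4596 peaks of q ≤ 1e-07, and the TAM libraries held 25494, 23994, and 40735. The difference in the mean log2 number was 3.22 (p = 0.1, exact two-sided permutation test over libraries, the smallest p that 3 against 3 can give). The median fold enrichment over input of these peaks was 8.20 ± 0.308 in EtOH and 8.05 ± 0.477 in TAM (mean ± SD, n = 3 libraries each; exact permutation p = 0.7), with each list cut at the same q. When the same number of top peaks was taken from each library, 1853, the median fold enrichment was 8.91 ± 0.365 in EtOH and 14.7 ± 0.386 in TAM. These are all peaks of EtOH library 2 but a small top slice of each TAM list, so the values restate the peak numbers and are given with no test.

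Regions called in EtOH were mostly called again in TAM. Among the merged EtOH regions, 99.2% of the 238 that all 3 EtOH libraries called held a TAM site, against 90.7% of the 1156 called by 2 libraries and 62.9% of the 6980 called by 1. Even of the last group, 88.8% overlapped a deposited TAM peak, meaning one of q ≤ 0.05 at least. Conversely, between 3.37 and 5.13% of the peaks of a TAM library overlapped an EtOH site. With the same number of top peaks per library, 31.9% of EtOH sites held a TAM site, and the counts were 811 gained, 230 kept, and 498 lost regions.

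The counts rested on single libraries to differing degrees. Without EtOH library 1, 2, or 3, the kept regions were 495, 768, or 472, and the lost regions 20, 72, or 22. Without TAM library 1, 2, or 3, the gained regions were 15880, 16074, or 11486, and the lost regions 248, 262, or 337. A site then needed both remaining libraries of that condition. In every one of these counts gained regions were the most frequent class.

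Gained regions differed in how much signal they had before transformation. Of 23835, 4214 overlapped a peak of q ≤ 1e-07 in at least 1 EtOH library without an EtOH site, 8489 overlapped only weaker deposited EtOH peaks, and 11132 overlapped no EtOH peak at all. Of these 11132 regions, 3180 were called in all 3 TAM libraries. The median fold enrichment of the peaks that the EtOH libraries listed in gained regions was 5.88, 6.25, and 5.87, and that of the TAM peaks was 7.70, 8.14, and 7.67. In kept regions the EtOH libraries had medians of 8.23, 8.21, and 7.96 and the TAM libraries 9.39, 10.6, and 9.83. Both classes thus had higher medians in TAM, but a median covers only the regions where a library lists a peak. For the gained class this order also restates the threshold that defined it.

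**Figure D1:**
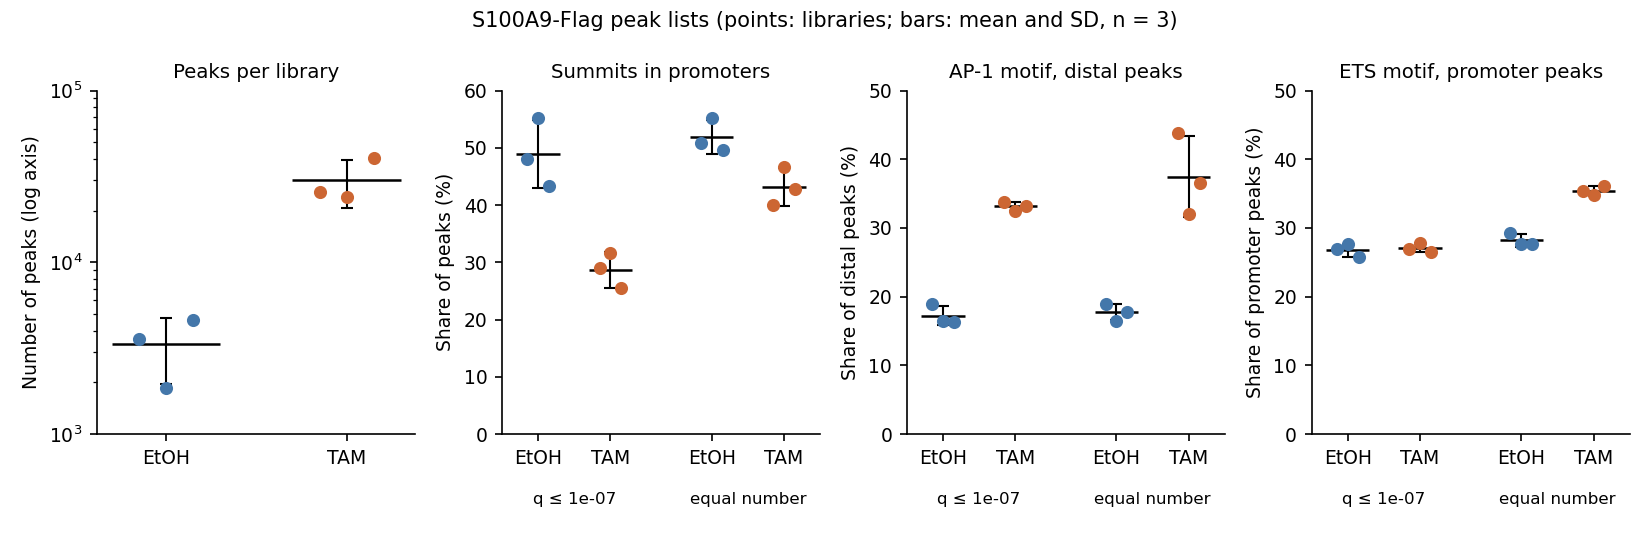
Each point is 1 S100A9-Flag library, and bars give the mean and SD (n = 3). The panels show the number of peaks of q ≤ 1e-07 on a log axis, then the share of peaks with a summit in a promoter, the share of distal peaks with AP-1 letters, and the share of promoter peaks with ETS letters, each for peaks of q ≤ 1e-07 and for the 1853 top peaks of every library. EtOH and TAM libraries do not overlap in number, promoter share, or distal AP-1 share, whereas the ETS shares of promoter peaks overlap at q ≤ 1e-07 (26.8 and 27.1%) and separate among the top peaks (28.2 and 35.4%).

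A smaller share of the TAM peaks lay at promoters. A summit was called promoter-proximal when it lay within 1500 bp before or 250 bp after the transcription start site (TSS) of a protein-coding transcript, and distal otherwise. The mean share of promoter peaks was 48.9% ± 5.98 in EtOH and 28.7% ± 3.07 in TAM, with libraries between 43.4 and 55.3% and between 25.4 and 31.6% (exact permutation p = 0.1, the smallest possible). Among equal numbers of top peaks the shares were 51.9% ± 2.95 and 43.1% ± 3.31, a smaller gap that still left the groups without overlap (exact permutation p = 0.1). In absolute numbers promoter peaks were also more numerous in TAM, with 7382, 7572, and 10366 against 1729, 1024, and 1994 in EtOH.

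The classes followed the same order. Promoters made up 62.7% of kept regions and 29.5% of gained regions, and the share within the gained class went from 2109 of 4214 regions where an EtOH library had called a peak, to 41.0% where EtOH had only weaker peaks, to 13.1% where EtOH had none. Intergenic summits made up 20.4% of kept and 35.1% of gained regions, and introns held 148 of the 1274 and 7144 of the 23835. Kept regions had a median width of 624 bp against 315 bp for gained regions, and their median GC content around the summit was 66.2% against 56.7%. Promoter summits lay close to the TSS in each class, with a median distance of 62 bp in kept, 74 bp in gained, and 55 bp in lost regions. Distal kept regions were nearer to a TSS than distal gained regions, with medians of 17983 and 27152 bp.

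Letters of AP-1 within 100 bp of the summit had the largest difference in share between the conditions among the 6 motifs. Over all peaks their share was 10.2% ± 1.13 in EtOH and 25.2% ± 1.14 in TAM (exact permutation p = 0.1, adjusted over 6 motifs 0.12). Distal peaks alone had 17.3% ± 1.40 and 33.1% ± 0.607, so the gap was also present with promoters set aside. In top lists of equal length the distal shares were 17.7% ± 1.19 and 37.4% ± 5.90. The C/EBP letters also had a higher share of distal peaks in TAM, with 14.1% ± 0.453 against 10.4% ± 0.776 in EtOH (exact permutation p = 0.1). Each of these is the smallest p the libraries allow.

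The letters most frequent at promoters gave other results. ETS letters had a share of 18.0% ± 1.84 over all EtOH peaks and 12.7% ± 1.11 over all TAM peaks, but within promoter peaks the shares were 26.8% ± 0.936 and 27.1% ± 0.663 (exact permutation p = 0.6). Over equal numbers of top peaks the order of the overall ETS share turned, to 19.8% in EtOH and 20.6% in TAM (exact permutation p = 0.3). KLF/SP1 letters had a share of 19.6% ± 0.730 of promoter peaks in EtOH and 24.9% ± 1.64 in TAM, without overlap (exact permutation p = 0.1). CTCF letters, which were more frequent at distal than at promoter peaks, had a share of 8.73% ± 0.453 over all EtOH peaks. Over all TAM peaks it was 10.7% ± 0.960, without overlap (exact permutation p = 0.1, adjusted over 6 motifs 0.12). Within distal peaks the CTCF shares overlapped, with means of 11.6 and 12.5% (exact permutation p = 0.5). They also overlapped within promoter peaks, with means of 5.77 and 6.07% (exact permutation p = 0.3). As background for promoter peaks, a window of the same length at the start of each of 20098 protein-coding genes held ETS letters in 18.2% of cases, KLF/SP1 letters in 22.5%, AP-1 letters in 2.64%, and CTCF letters in 2.44%. No background was computed for distal peaks, so these values are not to be set against distal shares.

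By class, 34.8% of distal gained regions held AP-1 letters, against 19.4% of distal kept and 16.7% of distal lost regions. Within the gained class this share went from 25.2% with an EtOH call, to 30.4% with weaker EtOH peaks, to 39.2% with no EtOH peak. It was 43.8% for the 2705 distal regions that all 3 TAM libraries called and no EtOH library listed. ETS letters ran the other way at promoters, with 33.4% of kept, 28.3% of gained, and 25.0% of lost promoter regions. Regions are not replicates, so these shares are descriptions.

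**Figure D2:**
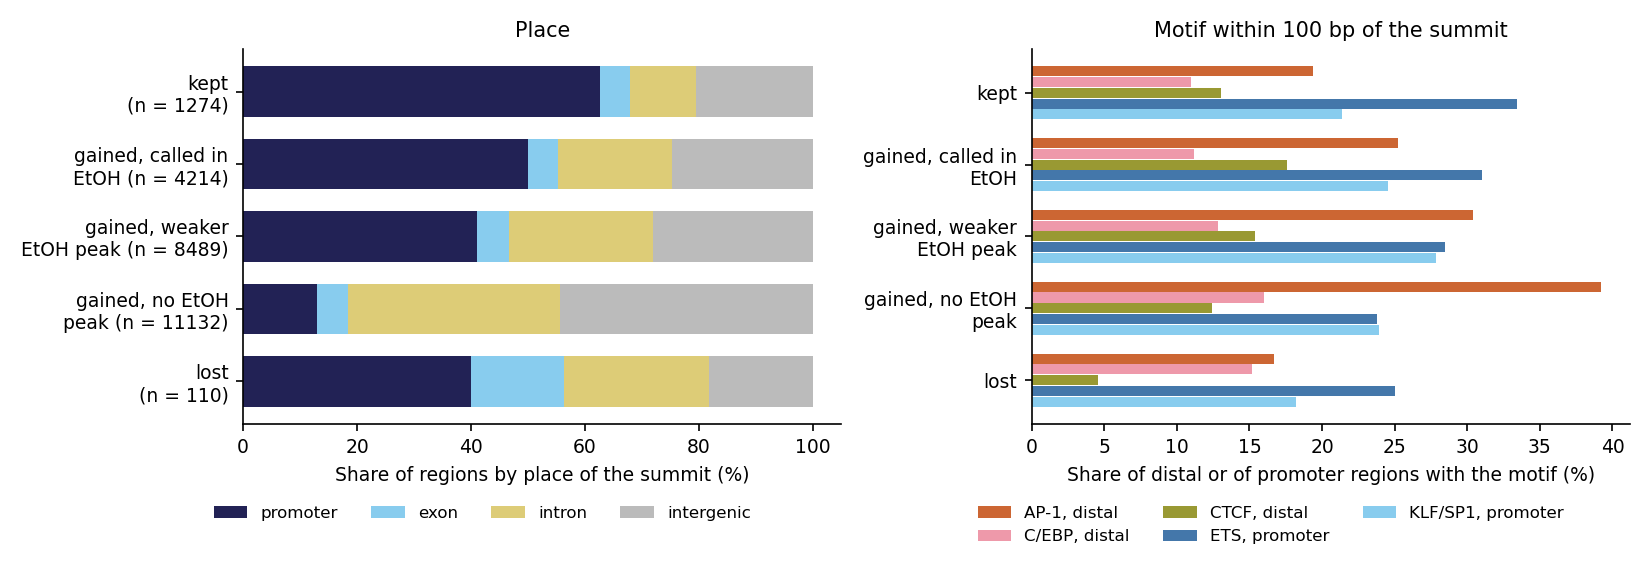
The left panel gives the place of the summit as a share of the regions of a class, and the right panel the share of distal or promoter regions with the named letters within 100 bp of the summit, with the gained class divided by what the EtOH libraries listed there. From kept regions down to gained regions with no EtOH peak, the promoter share runs from 62.7 to 13.1% and the distal AP-1 share from 19.4 to 39.2%.

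Stronger TAM regions, and those at promoters, had more often been called before transformation. Regions called in all 3 TAM libraries were ordered by the mean percentile of their fold enrichment among the peaks of each library. In the lowest bin of 20 percentiles 4.05% of promoter regions and 1.82% of distal regions were kept, and in the highest bin 32.1 and 13.2%. Promoters had the higher share in each of the 5 bins. At the same rank, distal regions with AP-1 letters were kept less often than those without, with 22 of 270 (8.15%) and 80 of 500 regions in the highest bin and 3.53 and 8.57% in the next. The order was the same for each EtOH library taken alone: library 1 called 14.8% of the top AP-1 regions and 24.4% of the others, library 2 called 11.5 and 14.8%, and library 3 called 16.3 and 30.6%.

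**Figure D3:**
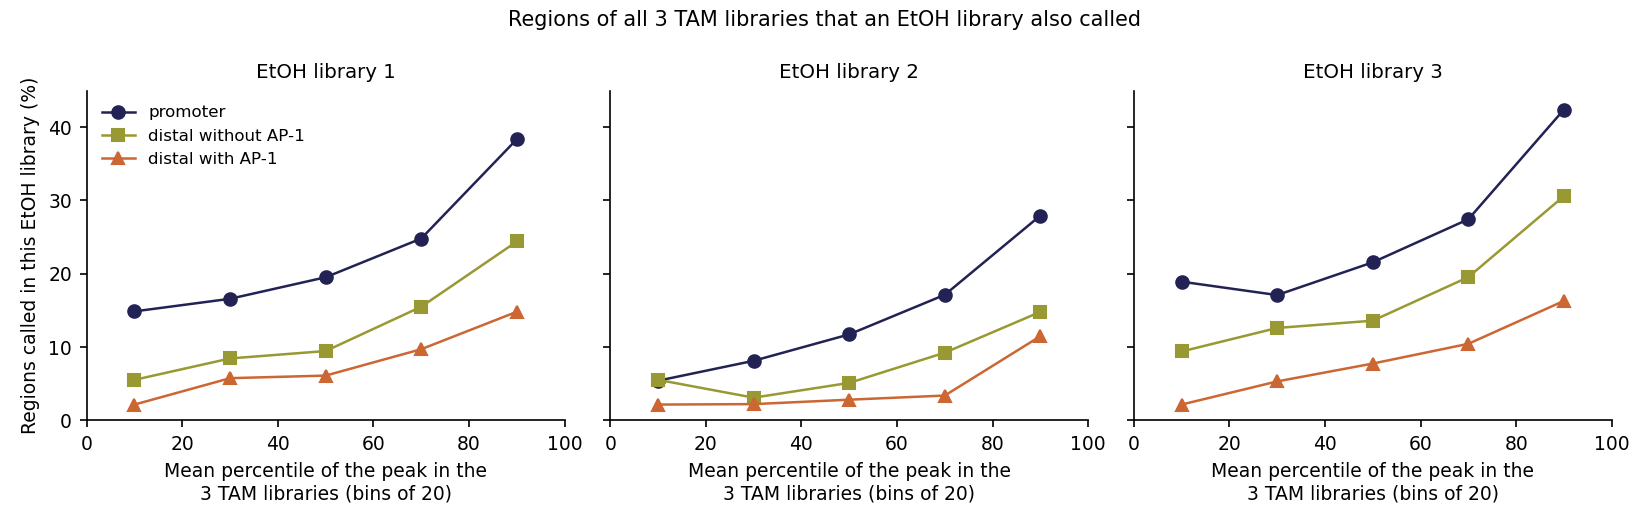
Regions of all 3 TAM libraries are placed by the mean percentile of their TAM peaks (x axis, bins of 20), and the y axis gives the share that the named EtOH library also called at q ≤ 1e-07. In each EtOH library the line of distal regions with AP-1 letters lies below that of distal regions without them in every bin, and in the highest bin promoters reach 38.4, 27.9, and 42.4%.

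Promoters of 897 of the 20098 protein-coding genes held a kept region (4.46%), those of 7078 held a gained region (35.2%), and those of 31 held only a lost region (0.154%). A gene with regions of several classes was counted as kept before gained and gained before lost. The gained genes were 4246 without TAM library 3. The kept genes were 350, 531, or 363 without EtOH library 1, 2, or 3. The lost genes ranged from 5 to 20 without an EtOH library and from 100 to 161 without a TAM library. A gained distal region lay within 50 kb of the TSS of 10856 genes (54%), and this was so for 61.6% of genes with a kept promoter, 61.0% of those with a gained promoter, and 49.3% of those with no promoter region.

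The 8 strongest kept promoters called in all 6 libraries are named here. At the promoter of MRPL55, a subunit of the large mitochondrial ribosomal subunit, fold enrichment was 11.9, 11.7, and 12.7 in the EtOH libraries and 12.6, 18.4, and 12.6 in the TAM libraries. MRPS23, of the small mitochondrial subunit, had 13.3, 12.2, and 13.4 in EtOH and 17.7, 15.6, and 7.82 in TAM. At these promoters the 2 groups of libraries overlapped. For SLC25A51, the mitochondrial NAD carrier, the groups did not overlap, with 10.04, 8.97, and 13.4 in EtOH and 20.7, 27.9, and 15.9 in TAM.

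The other kept promoters of this rank were MCFD2, PDE8A, ZNF609, MTERF4, and RAD54L2. MCFD2, whose product helps to carry clotting factors out of the endoplasmic reticulum, had the highest EtOH values, 42.3, 20.4, and 15.2, beside 19.9, 17.4, and 25.1 in TAM. PDE8A, a phosphodiesterase of cyclic AMP, had 16.2, 9.41, and 9.97 in EtOH and 20.6, 17.0, and 16.7 in TAM, which did not overlap. S100A8-Flag libraries also called these regions, with both EtOH and all 3 TAM libraries at MRPL55, PDE8A, ZNF609, SLC25A51, MRPS23, and RAD54L2. MCFD2 was called in 0 of 2 EtOH and 1 of 3 TAM libraries of S100A8-Flag.

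The strongest gained promoters without any EtOH peak had peaks in each TAM library. SLC37A4, the transporter that brings glucose-6-phosphate into the endoplasmic reticulum, had fold enrichment of 16.8, 17.1, and 14.9 at −34 bp from its TSS. ERCC1, part of the nuclease of nucleotide excision repair, had 16.2, 15.6, and 11.2 at −76 bp, with AP-1 and ETS letters in its window as shown above. EED, a core subunit of the Polycomb complex PRC2, had 11.4, 18.1, and 12.6 at −34 bp. Each of these promoters also carried S100A8-Flag peaks in all 3 TAM libraries.

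SESN2, a stress-induced regulator of mTORC1, had 17.7, 12.8, and 10.9 in TAM, and SLC6A6, the taurine transporter, had 17.0, 11.9, and 11.6. ZNF337, PITPNA, PKIG, SAMD4A, and AGFG1 completed the group, with values between 9.68 and 20.7. S100A8-Flag peaks were present in at least 1 of 3 TAM libraries at each except SAMD4A, which had none. Both S100A8-Flag EtOH libraries called ZNF337, and 1 of them called SLC37A4, EED, SESN2, PITPNA, PKIG, and AGFG1, so the absence of an S100A9-Flag EtOH peak was not matched by the S100A8-Flag lists at these promoters.

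The gene lists of pathways that Src is known to act on are described by their counts beside the shares over all genes. AP-1 subunits had the largest kept share of the lists, with 4 of 11 kept (JUN, JUNB, FOSL1, and ATF3, against 4.46% of all genes). A further 3 (27.3%, against 35.2% of all genes) were gained, namely FOS, FOSB, and FOSL2. At JUN the EtOH libraries had fold enrichment of 8.90, 8.47, and 9.56 and the TAM libraries 11.8, 10.9, and 9.79. JUNB had 7.89, 6.89, and 7.37 in EtOH and 18.2, 16.8, and 11.6 in TAM. Neither gene showed overlap between the conditions, but the genes shown from a list were chosen by TAM rank, which favors high TAM values. All 11 subunit genes had a gained distal region within 50 kb (against 54% of all genes), between 1 and 7 each.

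The immediate early genes, which growth factor signals switch on within minutes and which share FOS, JUN, and ATF3 with the AP-1 list, had 5 kept and 7 gained promoters of 16. Their shares were 31.25 and 43.75%, against 4.46 and 35.2% of all genes. EGR1 had a TAM fold enrichment of 15.2, 15.4, and 11.7 at −1344 bp, beside EtOH peaks of 7.90 and 5.19 in 2 libraries. Of 12 dual-specificity phosphatase, Sprouty, and SPRED genes, which damp ERK signaling, 3 were kept (DUSP1, SPRED1, and SPRED2), or 25% against 4.46% of all genes. Another 8 were gained, or 66.7% against 35.2%. DUSP1 had 8.56, 9.86, and 7.91 in EtOH and 11.8, 14.4, and 21.9 in TAM, and SPRY4 had EtOH peaks of 5.07 and 8.29 and TAM peaks of 15.2, 16.6, and 13.5. DUSP6 counted as gained although each EtOH library called a peak in its region, because those peaks did not overlap one another.

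NF-κB genes had the largest gained share of the lists. Of 14 subunits, inhibitors, and kinases, 13 had a gained promoter region (against 35.2% of all genes), and IKBKG had no region. None had a kept one, which is near the 4.46% of all genes. NFKB2, the p100 subunit, had 9.60, 6.26, and 6.30 in EtOH, of which only the first passed q ≤ 1e-07, and 19.5, 21.1, and 10.5 in TAM. NFKBIA, the inhibitor that NF-κB itself induces, had 6.21, 6.44, and 5.02 in EtOH and 17.7, 10.6, and 9.92 in TAM. Both genes thus had weaker EtOH peaks in all 3 libraries. They were named by their TAM rank within the gained class, so the gap to the TAM values partly restates that choice.

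The IL6, LIF, and STAT3 list had 3 kept (STAT3, SOCS3, and PIAS3) and 8 gained promoters of 16. These shares were 18.8 and 50%, against 4.46 and 35.2% of all genes. The receptor gene OSMR had the highest TAM rank, with 17.7, 24.8, and 16.9 against EtOH peaks of 3.27 and 10.98 in 2 libraries. IL6R, which holds AP-1 letters, had 16.4, 12.8, and 10.5 in TAM and 5.87, 4.90, and 12.8 in EtOH, where library 3 overlapped the TAM values. Of the 16 genes, 5 had no promoter region (31.25%, against 60.2% of all genes). A gained distal region lay within 50 kb of 13 (81.25%, against 54% of all genes). The ligand genes IL6, LIF, OSM, and IL11 had no promoter region but gained distal regions within 50 kb, from 1 for IL6 to 6 for LIF.

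Of 19 inflammatory cytokine and chemokine genes, 6 had a gained promoter (CXCL1, CXCL2, CXCL3, CXCL8, CSF3, and IL24), which at 31.6% is near the 35.2% of all genes. None had a kept one, which is near the 4.46% of all genes. A gained distal region lay near 14 of the 19 (against 54% of all genes), with 9 for IL1B and 7 for IL24. CXCL1 had TAM peaks of 10.3, 5.02, and 12.2, and CXCL2 of 7.31, 10.9, and 8.99. Of 14 matrix protease and plasminogen genes, 3 had a gained promoter (PLAUR, TIMP1, and MMP14), or 21.4% against 35.2% of all genes. A gained distal region lay near 13 of the 14 (against 54% of all genes). PLAUR, the urokinase receptor, had 6.33, 8.71, and 5.56 in EtOH and 13.6, 21.7, and 10.3 in TAM, with AP-1 and C/EBP letters at its summit.

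Most genes of basal epithelium had a promoter region. Of 16 basal and hemidesmosome genes, LAMB3, DST, and PLEC had kept promoters (18.8%, against 4.46% of all genes), 10 had gained ones (62.5%, against 35.2%), and all 16 had a gained distal region (against 54%). DST, which anchors keratins to hemidesmosomes, had 8.23, 9.21, and 8.74 in EtOH and 13.3, 15.5, and 11.6 in TAM. LAMA3, a chain of laminin-332, had EtOH peaks of 3.47 and 4.48 and TAM peaks of 14.8, 16.7, and 7.93, with AP-1 letters. Among the 8 markers of basal mammary epithelium, 6 had a promoter region. KRT14 and TP63 had none (25%, against 60.2% of all genes). Of 10 genes of other lineages, such as PTPRC of leukocytes and ALB of liver, none had a promoter region. Among all genes, 60.2% had none. However, 9 of these 10 had a gained distal region within 50 kb, from 1 to 4 each, and 54% of all genes had one.

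Epithelial-mesenchymal transition genes had 4 gained promoters of 9 (VIM, SNAI2, ZEB1, and ZEB2), or 44.4% against 35.2% of all genes, and no kept one against 4.46%. VIM had 7.05, 5.75, and 5.19 in EtOH and 10.6, 16.5, and 6.33 in TAM. Of 17 cell cycle genes of the G1 phase, only CCND1 was kept, with 9.22, 11.8, and 3.81 in EtOH and 8.16, 4.82, and 11.4 in TAM, and 8 were gained (47.1%, against 35.2% of all genes). The C/EBP list had 4 gained promoters of 6 (66.7%, against 35.2% of all genes) and none kept (against 4.46%). Of these, CEBPD had TAM peaks of 12.6, 9.08, and 10.4 and CEBPB, with 6.21, 7.57, and 7.73 in EtOH, had TAM peaks of 4.44, 5.52, and 7.41.

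Housekeeping groups had gained shares above the 35.2% of all genes. Their kept shares lay above the 4.46% of all genes, but only narrowly for respiratory chain subunits (5.81%). Mitochondrial ribosomal proteins had 14 kept (17.9%) and 48 gained (61.5%) of 78. Cytosolic ribosomal proteins had 7 kept and 58 gained of 84 and held the only 2 lost members of any list, RPL7 and RPS27A (2.38%, against 0.154% of all genes). Respiratory chain subunits had 5 kept and 57 gained of 86, proteasome subunits 5 kept and 24 gained of 39, and heat shock proteins and chaperones 4 kept and 9 gained of 15. RPL38 had fold enrichment of 5.71, 8.59, and 12.8 in EtOH and 12.1, 13.7, and 11.9 in TAM. Olfactory receptor genes, which are silent in epithelium, had 2 gained promoters of 399 and a gained distal region near 14.5% of genes.

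**Figure D4:**
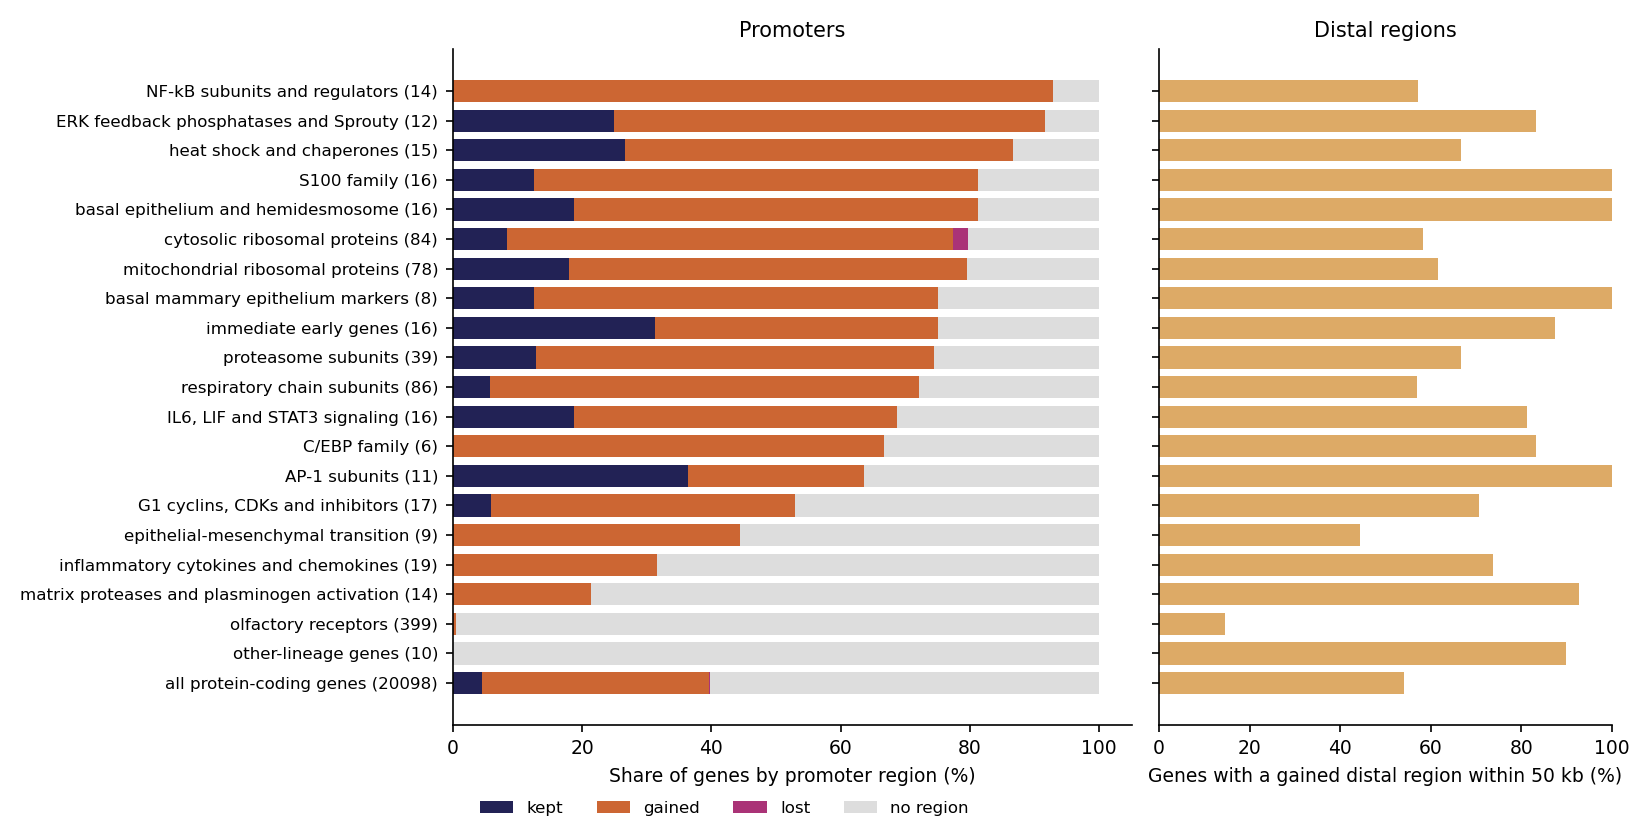
Bars give the share of each gene list (number of genes in parentheses) by the class of its promoter region on the left, and the share with a gained distal region within 50 kb on the right, with all protein-coding genes at the bottom. NF-κB genes have the smallest share without a promoter region, and AP-1 subunits the largest kept share (36.4%).

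Distal regions without any EtOH peak were found in introns and between genes. An intron of PI4KB, a phosphatidylinositol kinase of the Golgi, had TAM fold enrichment of 21.3, 13.6, and 13.5, and its sequence above holds the AP-1 letters at 2 positions. An intron of PDLIM5, a scaffold of the actin cytoskeleton, had 21.7, 12.2, and 15.7. An intronic region at −63074 bp from the nearest TSS, that of the steroid sulfatase gene STS, had 13.1, 14.1, and 20.8 and AP-1 letters. MYLK4, a kinase of the myosin light chain kinase family, had 22.7, 11.9, and 16.9 in an intron at 59852 bp from its nearest TSS without any of the letters searched. The regions nearest to TMEM235 and GBX1 held CTCF letters, and those nearest to AJAP1, NEMF, KAT14, and PABPC1 completed the group. S100A8-Flag libraries called each of these 10 regions in at least 2 of 3 TAM libraries, and 2 of the 10 (NEMF and KAT14) in 1 EtOH library.

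Some loci held many gained distal regions. LAMB3, a chain of laminin-332, had the most, 17 within 50 kb of its TSS, of which 13 had no EtOH peak and 5 held AP-1 letters. Its neighbor G0S2 had 12, all of them among the 17. DUSP1 had 15 in the same window. The strongest of the 15, between genes at chr5:172247037-172247671, was nearest to another gene, at −13973 bp from a TSS of ERGIC1. It had TAM fold enrichment of 8.81, 10.2, and 11.2 beside EtOH peaks of 5.90 and 5.39. MCL1, an inhibitor of apoptosis, and NAV1 had 14 each, SMAD3, a transducer of TGF-β, had 13, and ACTB, CRABP2, CSNK1D, and DDIT4 had 12 each. The strongest region of SMAD3, in its own intron at chr15:67467205-67467673, had 9.55, 10.5, and 14.8 in TAM and a single EtOH peak of 3.09, with AP-1 and ETS letters.

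The lost class was small, and most of its regions kept some TAM signal. Of 110 regions, 77 overlapped a TAM peak of q ≤ 1e-07 in some library without a TAM site, 26 overlapped only weaker TAM peaks, and 7 overlapped none. The EtOH libraries had median fold enrichment of 8.34, 8.06, and 7.93 where they listed a peak, and the TAM libraries 5.36, 5.55, and 6.35. TAM library 3 called 50.9% of the lost regions, against 8.18 and 11.8% for libraries 1 and 2, and it also had the most peaks.

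Promoters made up 44 of the lost regions. IL1RAP, the accessory chain of the interleukin-1 receptor, had EtOH peaks of 4.20, 9.67, and 11.2 and TAM peaks of 5.59, 3.24, and 8.14, with the last past the threshold. HNRNPUL1 had 9.58 and 7.73 in 2 EtOH libraries and 3.05 and 5.27 in 2 TAM libraries. PACS2 and PLEKHB2 had EtOH peaks in libraries 1 and 3, of 8.78 and 8.54 and of 8.23 and 8.09, and no TAM peak. PLEKHB2, however, was called by 2 of the 3 S100A8-Flag TAM libraries, and PACS2 by none.

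The remaining lost promoters spanned histone genes (H1-5, H2AC11, and H2BC9), DNA replication and repair (POLD3 and MRE11), cell division (RACGAP1 and PLK4), and signaling (RAP1B and NCK1), a grouping made after the list was seen. RAP1B had EtOH peaks of 7.85 and 7.57 and TAM peaks of 4.52, 5.77, and 8.68. CTBP2 counted as lost although 2 TAM libraries called peaks in its region, because these did not overlap each other. KRT17 had a lost region at −1182 bp and a gained one at −249 bp, and was counted as gained.

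**Figure D5:**
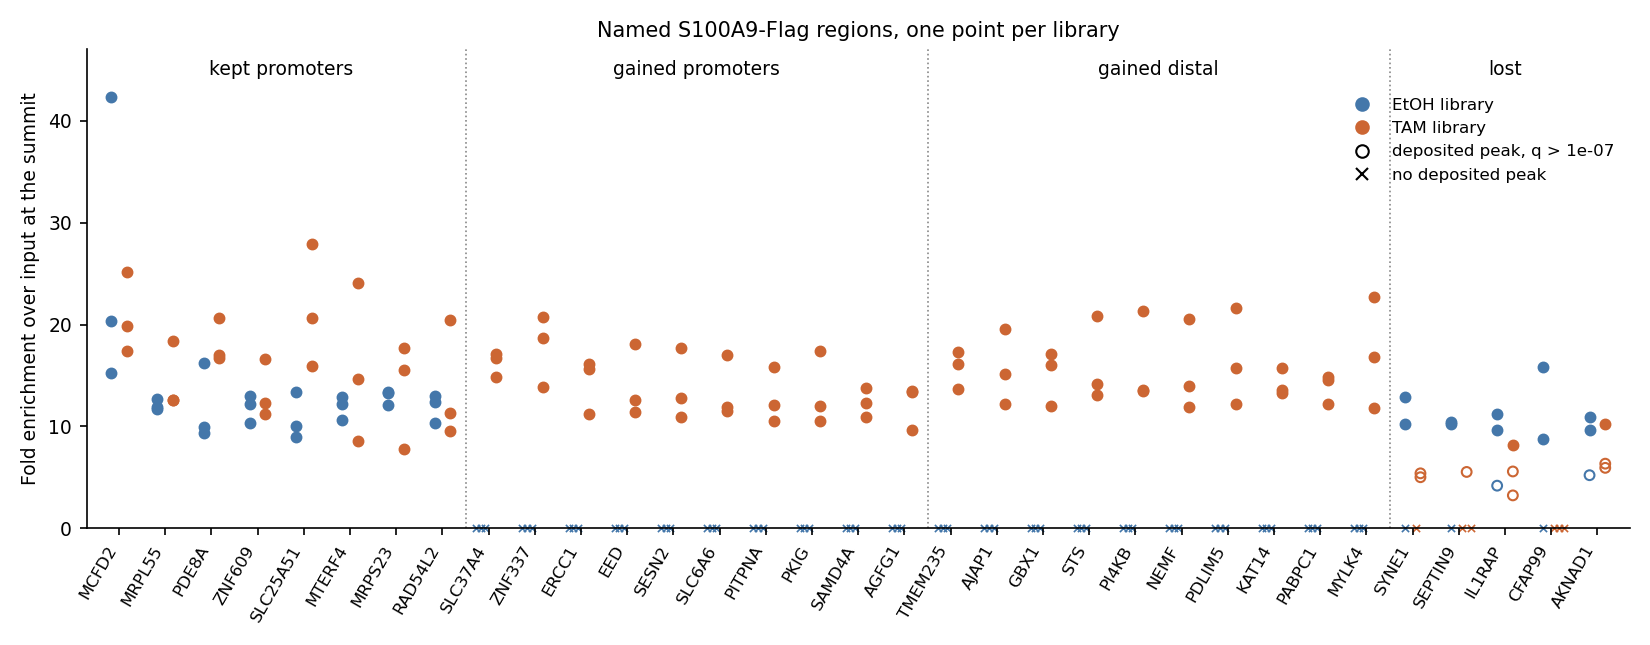
Each point is the fold enrichment of 1 library at the regions of the strongest kept promoters, gained promoters, and gained distal regions, and at the lost regions of highest EtOH rank (named by the nearest TSS; the region named SYNE1 lies in an exon of ESR1). Filled points are peaks of q ≤ 1e-07, open points are weaker deposited peaks, and crosses at 0 stand for no deposited peak. Kept promoters have peaks in all 6 libraries, gained ones lie between 9.68 and 22.7 in TAM with only crosses in EtOH, and the lost region nearest to CFAP99 has no TAM peak.

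Exons of S100A9 and ESR1, genes whose coding sequences these cells carry as added copies, held peaks in both conditions. Over S100A9, exon regions at chr1:153330719-153331009 and chr1:153332880-153333563 were called in all 6 libraries, the second with 21.3, 13.4, and 15.0 in EtOH and 22.6, 16.2, and 14.8 in TAM. S100A8-Flag libraries, whose cells carry another coding sequence, called the first in 0 of 5 and the second in 1 of 5 libraries. Exons of ESR1, which encode the hormone-binding part of ER-Src, held 3 kept regions, with up to 42.9 in EtOH and 29.8 in TAM, and 1 lost region, which is the lost region of highest EtOH rank. S100A8-Flag cells also carry ER-Src. Their libraries called the kept region at chr6:152419821-152420140 in both EtOH and all 3 TAM libraries. They called each other kept exon region in 1 EtOH and 1 TAM library, and the lost one in 0 of 5. Regions over SRC, at its promoter and in introns, were gained. Reads of an added copy and of the gene's own exons cannot be told apart, so the source of the exon peaks was not tested. These regions stay in the counts above. The S100A9 promoter, outside the coding sequence, was kept with 5.98, 7.81, and 8.73 in EtOH and 11.6, 13.7, and 11.7 in TAM. That of S100A8 was gained with 13.6, 10.5, and 9.91 in TAM, beside weaker EtOH peaks of 5.49 and 3.84 in 2 libraries. Both EtOH and all 3 TAM libraries of S100A8-Flag called the S100A8 promoter region.

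Most S100 genes lie in a cluster on chromosome 1, and most had a promoter region. Of 16 S100 family genes, S100A2 and S100A9 had kept promoters (12.5%, against 4.46% of all genes) and 11 had gained ones (68.8%, against 35.2%). All 16 had gained distal regions (against 54% of all genes). S100A11 had the highest TAM rank, taken over the TAM libraries that called its region. Its fold enrichment was 4.44, 18.5, and 12.4 in TAM, with EtOH peaks of 7.14 and 5.72 in 2 libraries. Since neighbors of the cluster lie within 50 kb of one another, the same distal region can count for several of them.

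The S100A8-Flag libraries came from a separate stable line with the same treatments and took no part in defining the classes. At gained S100A9 regions the 2 S100A8-Flag EtOH libraries called 11.1 and 11.6%, and the 3 TAM libraries 53.8, 50.9, and 46.8%. Kept regions were called in 49.1 and 50.8% and in 87.7, 82.5, and 80.1%. Lost regions also had the higher shares in TAM, with 11 and 15 of 110 regions against 54, 43, and 44. The S100A8-Flag lists themselves held 4327 and 4609 peaks in EtOH and 29381, 24117, and 21518 in TAM. The shares can therefore not be read apart from the number of peaks. In each class the groups did not overlap (p = 0.2, exact two-sided permutation test, the smallest that 2 against 3 libraries can give). With equal numbers of top peaks the S100A8-Flag difference turned in the kept and lost classes, to −5.36 and −5.19 percentage points. That setting also redefined the classes, with 230 kept and 498 lost regions. At the gained regions with no S100A9-Flag EtOH peak, S100A8-Flag called 4.25 and 4.07% in EtOH and 41.5, 39.5, and 35.5% in TAM.

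To ask which regions moved relative to the others, fold enrichment was compared at the 2633 regions where all 6 libraries listed a peak of any strength. The library medians were 6.62, 6.77, and 6.39 in EtOH and 8.88, 9.87, and 9.28 in TAM, and the median log2 difference without any centering was 0.48. After each library was centered on its median, limma called 0 regions higher (0%) and 0 lower (0%) in TAM at an adjusted p of 0.05, and 175 had an unadjusted p under 0.05. On ranks of fold enrichment, 0 regions passed in either direction as well. Without centering, 71 regions passed, all of them higher in TAM. Relative to the common shift, kept regions had a median log2 difference of −0.16, gained regions 0.05, and the 18 lost regions among them −0.84, which restates the thresholds that made the classes. Distal regions with AP-1 letters had a median of 0.03 (176 regions) and those without −0.08 (732 regions).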

How the data were processed

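Flag ChIP-seq libraries of S100A9-Flag cells (3 EtOH, 3 TAM) and, as a separate readout, of S100A8-Flag cells (2 EtOH, 3 TAM) were used as deposited narrow peak lists. The authors used Bowtie2 for alignment to hg19, retained reads that mapped uniquely, and ran MACS2 on each library with its own input as control. Tool versions are not given in the sources used here. The deposited fold enrichment is the ratio of signal at the summit over input, the deposited −log10 q values are those of MACS2, and the deposited score and the −log10 p-value columns were not used. The lists reach down to q ≤ 0.05. The study also asked for a minimum number of reads per peak, which needs reads and was not applied.

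Peaks of q ≤ 1e-07 were merged by 1 bp of overlap. Promoters used 55732 TSSs of 20098 protein-coding genes in GENCODE 44 (lifted to GRCh37). Motifs were searched within 100 bp of the summit on both strands. Library means were compared by exact two-sided permutation tests, and log2 fold enrichment by limma 3.58.1 (R 4.3.3) with Benjamini-Hochberg adjustment. The code was tested on simulated data. Python 3.11.15, pandas 2.3.3, scipy 1.17.1, pysam 0.24.0, and samtools 1.23.1 were used.

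Regions, gene lists, and tests were chosen with earlier results of these data known. Named genes were the 8 kept promoters ranked first by fold enrichment percentile over the 6 libraries, the 10 strongest gained promoters and 10 strongest gained distal regions with no EtOH peak, the lost promoters and 5 strongest lost regions, up to 4 promoters per list by TAM percentile, regions over introduced coding sequences, and the 10 genes with most gained distal regions. Percentiles were averaged over the libraries that called a region. Members named to complete a small count were chosen after their values were seen. The labels call the libraries biological replicates. Alternatives changed the q threshold, number of peaks, replicates required, overlap, promoter window, motif window, centering, and libraries.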

Additional observations from a re-analysis of the deposited data

How the results depend on the processing

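Site counts depended on the threshold and on the replicates required, while the directions of peak number, promoter share, and AP-1, C/EBP, and CTCF shares were kept under every alternative run. With every deposited peak there were 43262 gained, 8426 kept, and 751 lost regions and 4976 kept and 52 lost promoter genes. At q ≤ 1e-10 there were 14305, 306, and 22 regions and 224 kept and 7 lost genes. With equal numbers of top peaks there were 811, 230, and 498 regions, 185 kept, 417 gained, and 331 lost genes, and 31.9% of EtOH sites with a TAM site. When every replicate was required there were 10583, 213, and 24 regions, 161, 4457, and 15 genes, and 89.9% of EtOH sites, and when 1 replicate sufficed 46162, 6600, and 1555 regions, 3604 kept and 123 lost genes, and 81.4%. Leaving out each replicate gave 11486 to 24651 gained, 472 to 1136 kept, and 20 to 337 lost regions, 75.8 to 96.1% of EtOH sites, and 350 to 822 kept, 4246 to 7629 gained, and 5 to 161 lost genes. Over all peaks, the difference in ETS share (TAM minus EtOH, −5.37 percentage points) turned to 0.881 with equal numbers of top peaks, and that in KLF/SP1 share (−2.21) to 0.899. The CREB difference (−0.109) turned to 0.720 with equal numbers and 0.0196 with motifs within 50 bp, and ran from −0.282 to 0.0368 when a replicate was left out. With equal numbers, which also redefined the classes, the S100A8-Flag difference was −5.36 points at kept and −5.19 at lost regions. The cause of these turns was not tested.

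For relative fold enrichment, limma without centering gave 71 higher regions, and leaving out a replicate gave 0 to 1 lower. Same-numbered EtOH and TAM libraries had correlations of deviations of 0.00814, −0.0230, and −0.00256, so the numbers were not taken as pairs. With the replicate block, limma gave 2 lower and 0 higher regions. Read depth is unknown from peak lists, so the number of peaks cannot be set against it.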

Other observations

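Peaks on sequences other than chromosomes 1 to 22 and X overlapped in number between the conditions. At q ≤ 1e-07 there were 42, 32, and 39 in the EtOH libraries and 35, 39, and 44 in the TAM libraries (exact permutation p = 0.8).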
